A study of Mus musculus with 4 samples.

Results

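The 10 genes described here carry out iron uptake, storage, release and sensing: Tfrc, Slc11a2, Slc40a1, Slc25a37, Fth1, Ftl1, Ncoa4, Hmox1, Ireb2 and Aco1. They were taken by symbol from a table of 28334 rows of normalised log2 counts, and all 10 have a row there. All 10 also passed the minimum value that left 13685 genes for testing. The table holds 4 poly-A RNA-seq libraries of Treg, regulatory T cells, which are CD4+ lymphocytes that express Foxp3 and restrain other immune cells. The question behind the comparison is what losing PDK1, the AGC-family kinase that activates AKT, does to these cells.

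The 2 KO libraries came from Foxp3 YFP-Cre/0 Pdpk1 FL/FL mice, in which both copies of Pdpk1 carry loxP sites. The 2 WT libraries came from Foxp3 YFP-Cre/0 Pdpk1 +/+ mice, so the controls carried the same single Cre allele with intact Pdpk1. Both groups were C57BL/6, were not treated, and gave CD4+ YFP+ cells sorted straight from spleen and peripheral lymph nodes. Foxp3 drives the Cre, which restricts deletion to cells that express Foxp3. The sources used here give neither the age of the mice nor the floxed exons nor any pooling of animals. Nothing states that libraries of a group came from separate animals, so p-values measure only the spread between these libraries. Reads per library were not given, so the depth behind each value is unknown.

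Pdpk1 itself was at 11.78 and 11.73 in the KO libraries, against 11.71 and 11.76 in the WT libraries, so the groups overlapped. A value summed over all exons does not check a deletion of some of them, so KO and WT stand here for the labels. The labelled cell type was matched by its markers: Foxp3, Il2ra, Ikzf2, Ctla4, Lrrc32, Cd4, Cd3e, Cd3g and Trac lay between 10.90 and 13.26 in every library. The tested markers of macrophages, erythroid cells, B cells, CD8 T cells and NK cells were lower, at or under 9.60. Leaving out the receptor gene Axl, the highest of them, the summed linear value of the macrophage markers was 474.0 and 514.6 in KO, against 614.5 and 443.6 in WT, while the Treg markers summed to 40972.9 and 41178.5 in KO, against 38237.2 and 37758.4 in WT.

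Cells take up most of their iron bound to the protein transferrin, which the transferrin receptor carries into endosomes. Iron leaves the endosome through DMT1 (Slc11a2), enters mitochondria through mitoferrin-1 (Slc25a37), is stored inside ferritin shells of heavy (Fth1) and light (Ftl1) chains, and leaves the cell through ferroportin (Slc40a1). Proliferating T cells are known for high transferrin receptor levels. The iron regulatory proteins IRP1 (Aco1) and IRP2 (Ireb2) bind hairpins called iron-responsive elements (IREs) when iron is scarce. Bound to the 3′ untranslated region of Tfrc they protect the mRNA from decay, and bound to the 5′ untranslated region of ferritin or ferroportin mRNA they block translation. RNA-seq measures the mRNA and not its translation.

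The hairpins are shown because they are the feature by which the same proteins act on several of these transcripts. The pattern searched was C, 5 bases, the loop CAGTGN, and 5 bases that pair with the first 5 (G-T pairs allowed), on the transcript strand of GENCODE M21 protein-coding transcripts. In the sequences, capitals mark the unpaired C and the 6 bases of the loop. The lower-case runs of 5 bases between and after them form the upper stem. The outer lower-case bases flank it and were not part of the pattern. All positions are on GRCm38, the assembly of mm10. Tfrc had 4 matches, all in the 3′ untranslated region, on the plus strand at chr16:32631220-32631247, chr16:32631599-32631626, chr16:32631664-32631691 and chr16:32631711-32631738.
Tfrc element 1: attatCggaagCAGTGCcttccataatt
Tfrc element 2: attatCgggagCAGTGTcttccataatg
Tfrc element 3: tatatCggagaCAGTGAtctccatatgt
Tfrc element 4: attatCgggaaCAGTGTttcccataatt

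Fth1, Ftl1 and Slc40a1 had 1 match each, all in the 5′ untranslated region. They lie at chr19:9982733-9982760 on the plus strand, and at chr7:45459779-45459806 and chr1:45925465-45925492 on the minus strand.
Fth1: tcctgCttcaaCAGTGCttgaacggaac
Ftl1: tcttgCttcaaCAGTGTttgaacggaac
Slc40a1: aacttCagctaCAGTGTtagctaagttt

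The elements of Fth1 and Ftl1 were identical at 26 of 28 positions. Of the searched transcripts, 1 of 3 of Tfrc and 4 of 5 of Fth1 had a match. So did 1 of 2 of Ftl1 and 1 of 4 of Slc40a1. The transcript shown was picked among those with a match. The pattern is strict, so the matches of Tfrc need not be all of its IREs. Of the 10 genes, 4 had a match (Tfrc, Fth1, Ftl1, Slc40a1), against 1.73% of the 11649 tested genes with a searched transcript. Both counts take a match in any region of any protein-coding transcript. These 4 were already known for IREs, so the higher share was fixed in advance and is no finding. Slc11a2 is known for an IRE in one of its isoforms, and none of its 6 searched transcripts held these letters in this arrangement. A match describes the sequence and is no measure of binding.

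**Figure D1:**
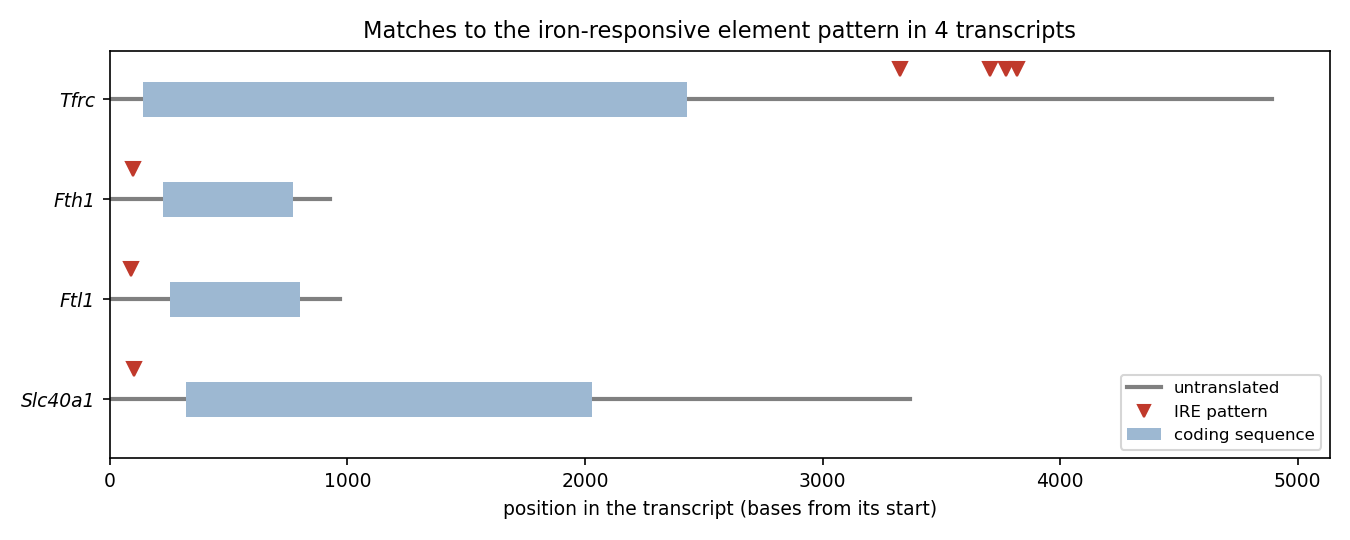
Matches to the IRE pattern (triangles) along 1 protein-coding transcript each of Tfrc, Fth1, Ftl1 and Slc40a1, in bases from the transcript start; boxes are coding sequence and lines are untranslated regions. The 4 matches of Tfrc lie after the coding sequence and the single matches of the other transcripts lie before it.

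In Treg of the KO group, 3 of the 10 iron genes rose and 1 fell. The rises were in Tfrc, Ncoa4 and Fth1, and the fall was in Slc25a37. Tfrc rose 1.43-fold, and the other called differences were small, at 1.11-fold for Ncoa4, 1.102-fold for Fth1 and 1.05-fold lower for Slc25a37. KO and WT were compared with limma on the deposited log2 values, p-values were adjusted by Benjamini-Hochberg over the 13685 genes, and genes are called where the adjusted p is under 0.05. Calls were common: higher in 3 of the 10 iron genes, against 27.1% of the tested genes, lower in 1, against 20.3%, and in either direction in 4, against 47.4%. Both KO libraries lay above both WT libraries in 4 of the 10, against 39.9% of the tested genes, and below them in 4, against 33.1%. The median log2 difference was -0.02 over the 10 genes and 0.015 over all tested genes. With any 1 library left out, none of these calls held. The differences of the 4 called iron genes kept their sign, which was fixed in advance because their groups did not overlap. The mean of KO 1 and WT 1 lay within 0.01 log2 of the mean of KO 2 and WT 2 in 48.8% of the tested genes and in 6 of the 10, against 15.4% of the tested genes for the crossed pairs. If the authors removed a replicate effect from the values, which was not tested, the SEs, intervals and p-values printed here are too small.

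**Figure D2:**
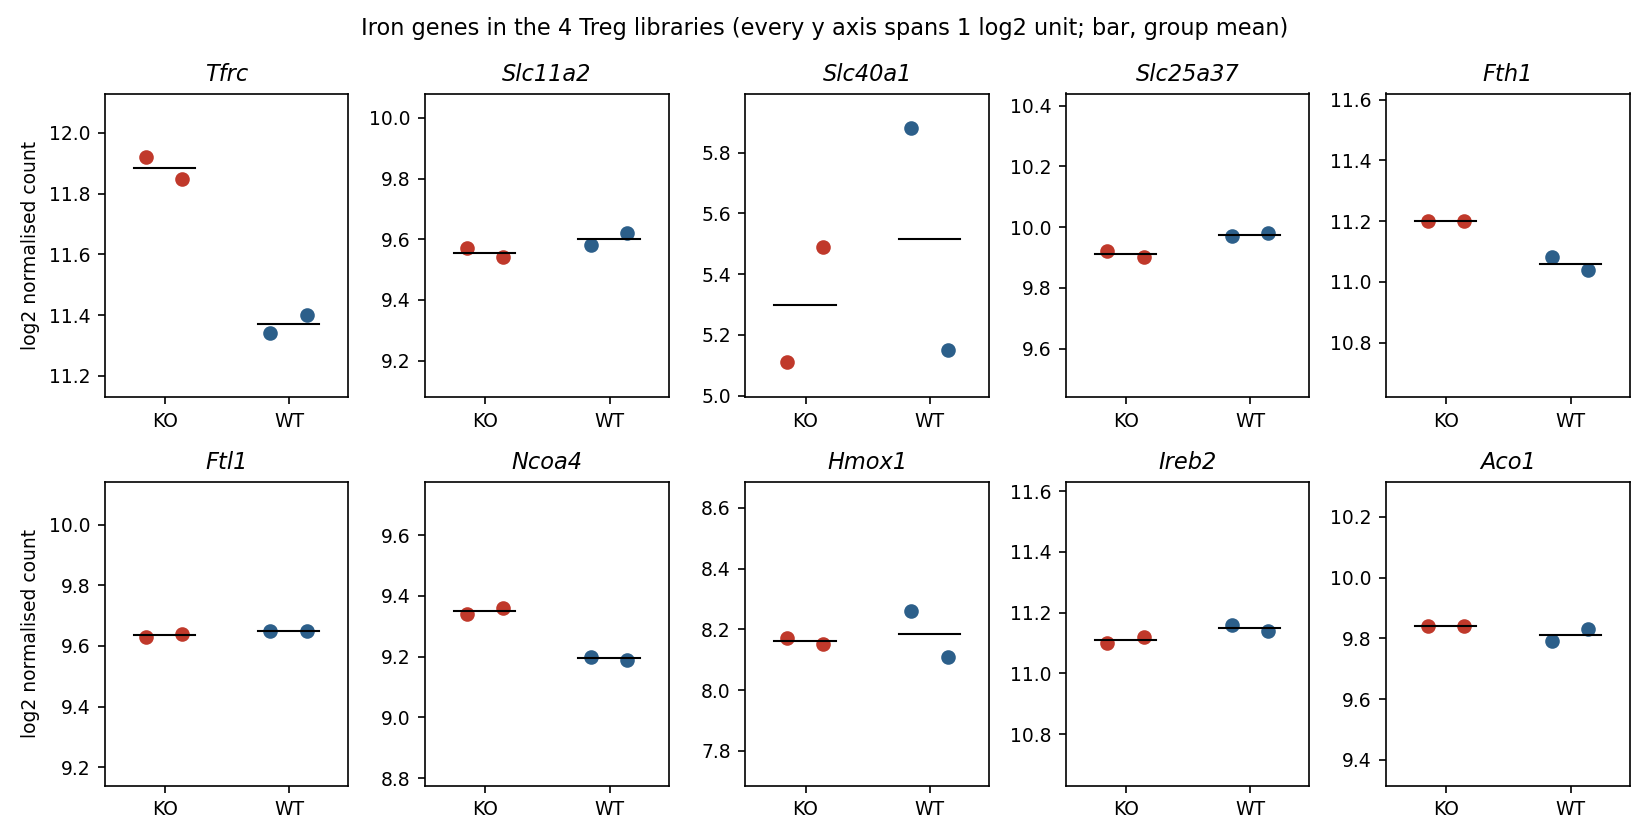
Normalised log2 count of each iron gene in the 2 KO and 2 WT libraries (points, with replicate 1 left of replicate 2) and the group means (bars); each y axis spans 1 log2 unit. Tfrc shows the widest gap between groups, and Slc40a1 the widest spread within them.

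**Figure D3:**
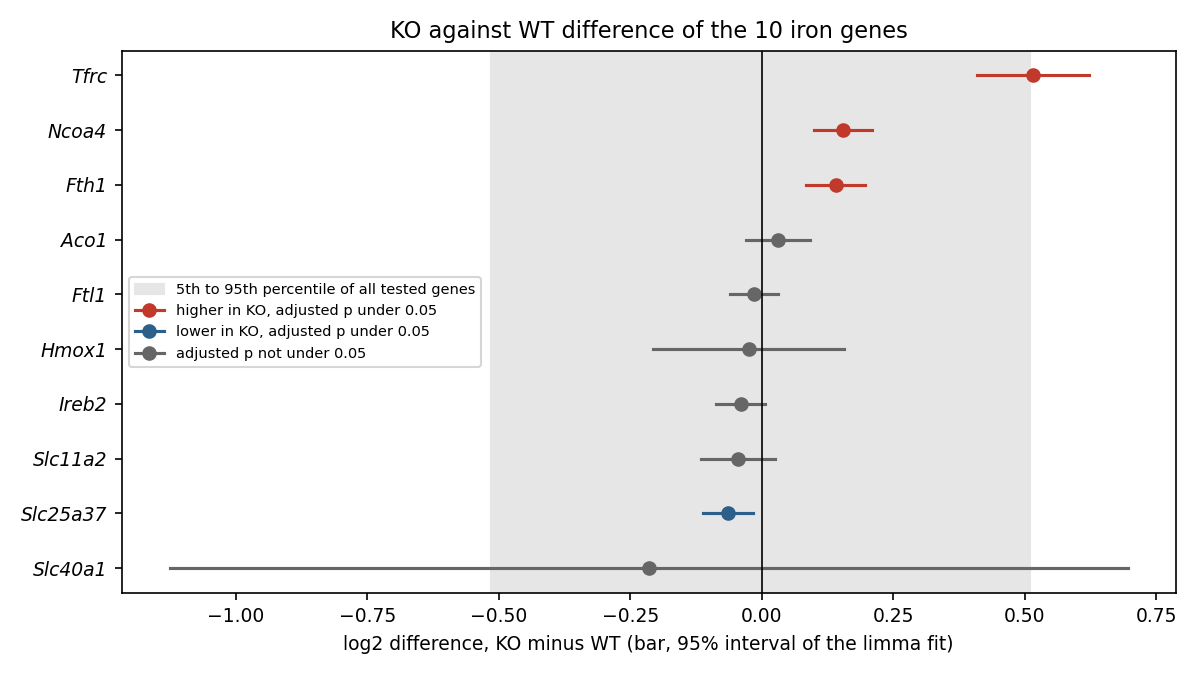
Log2 difference, KO minus WT, of the 10 iron genes with the 95% interval of the limma fit; the grey band runs from the 5th to the 95th percentile of all tested genes (-0.515 to 0.51). Only Tfrc, at 0.515, reaches the edge of the band, and the interval of Slc40a1 is the widest.

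Among the uptake and transport genes, Tfrc (chromosome 16, 32608920 to 32632794, plus strand) encodes the transferrin receptor. Its normalised log2 count was 11.92 and 11.85 in KO, against 11.34 and 11.40 in WT. Both KO libraries were above both WT libraries. The log2 difference was 0.515 (SE 0.04, 95% interval 0.41 to 0.62, limma adjusted p = 0.00608). Of all tested genes, 4.88% (668) had a higher one. Leaving out 1 library at a time gave differences of 0.48 without KO 1, 0.55 without KO 2, 0.485 without WT 1 and 0.545 without WT 2, with limma adjusted p from 0.0817 to 0.0961. In bulk RNA, more cells with a transcript and more of it per cell cannot be told apart.

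Cell cycle genes moved with Tfrc. All 20 genes of a cell cycle list were called higher in KO, against 27.1% of all tested genes, with log2 differences from 0.20 to 0.92 and a median of 0.675, and 15 of the 20 exceeded that of Tfrc. The mitotic ubiquitin-conjugating enzyme gene Ube2c differed by 0.80 (SE 0.02), the replication factor gene Gins2 by 0.68 (SE 0.03) and the cyclin gene Ccna2 by 0.675 (SE 0.04). Among all tested genes with a unique symbol, the one whose 4 values lay closest to those of Tfrc, after centring each gene on its own mean, was the proliferation marker Mki67. Its Euclidean distance over the 4 libraries was 0.00866 log2 units. Mki67 was at 12.88 and 12.82 in KO, against 12.30 and 12.36 in WT. The next closest were Arl6, a small GTPase gene, and Slc25a10, the mitochondrial dicarboxylate carrier gene, both at 0.0141. The deposited values are rounded, and distances this small are near that rounding, so their order is uncertain. The log2 differences were 0.52 for Mki67, 0.505 for Arl6 and 0.525 for Slc25a10, against 0.515 for Tfrc. Deviations of KO 1 and WT 1 from their group means correlated at -0.907 across genes, so the spread within KO adds little. The ranking thus mainly finds genes with a difference near that of Tfrc, and does not single out Mki67. The part of proliferation in the Tfrc difference was not tested.

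**Figure D4:**
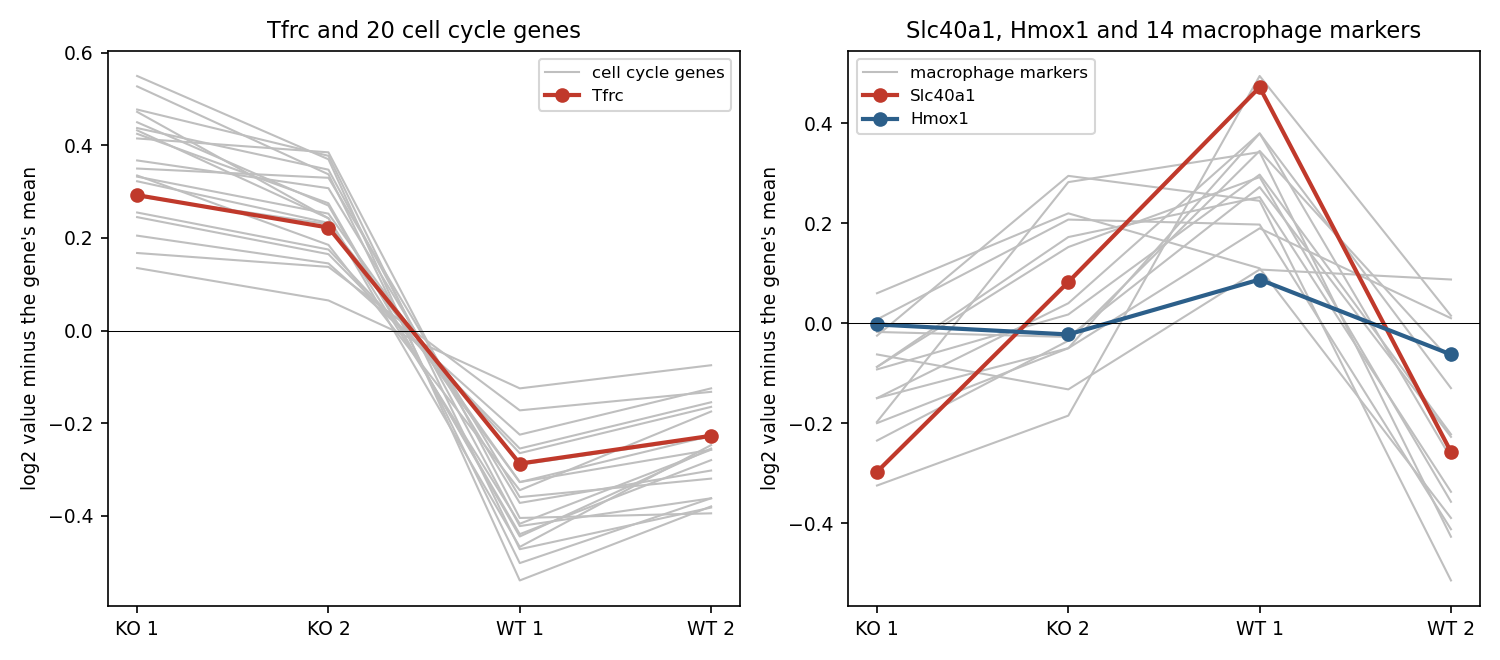
Log2 value minus the gene's own mean in each library. Left, Tfrc with the 20 cell cycle genes: all are higher in both KO libraries than in both WT libraries. Right, Slc40a1 and Hmox1 with the 14 macrophage markers tested: Slc40a1 and most of the markers peak in WT 1.

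Slc11a2 (chromosome 15, 100387898 to 100425072, minus strand), the endosomal iron transporter DMT1, was at 9.57 and 9.54 in KO, against 9.58 and 9.62 in WT. The groups did not overlap, but were 0.01 apart at their nearest. The log2 difference of -0.045 was within the error of the fit (95% interval -0.12 to 0.03, limma adjusted p = 0.211). Slc25a37 (chromosome 14, 69241848 to 69285112, minus strand), which brings iron into mitochondria for heme and iron-sulfur cluster synthesis, was at 9.92 and 9.90 in KO, against 9.97 and 9.98 in WT. The log2 difference of -0.065 (SE 0.02) passed the threshold narrowly (limma adjusted p = 0.0449), and the call was lost with no filter on low values (0.0547), without a variance trend (0.0876), with a robust prior (0.0553), with the replicate number as a term (0.203) and without each of the 4 libraries (0.10 to 0.176; 0.0199 to 0.203 over all alternatives). The other mitoferrin gene, Slc25a28, was at 9.06 and 8.95 in KO, against 8.96 and 9.06 in WT, and was not called (limma adjusted p = 0.955).

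Slc40a1 (chromosome 1, 45908068 to 45926523, minus strand), the iron exporter ferroportin, was the lowest of the 10 genes. Its normalised log2 count was 5.11 and 5.49 in KO, against 5.88 and 5.15 in WT. The highest value was in WT 1, and the groups overlapped. The log2 difference was -0.215 with a 95% interval from -1.13 to 0.70 (limma adjusted p = 0.613). It became 0.15 without WT 1 and -0.58 without WT 2, so its direction rests on 1 library.

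Most tested markers of macrophages, cells known for ferroportin and heme oxygenase, had the library order of Slc40a1. In Slc40a1, WT 1 and KO 2 were both above WT 2 and KO 1. The same held for 10 of the 14 macrophage markers tested and for 12.8% of all tested genes, and WT 1 was the highest library for 11 of the 14, against 23.1% of all tested genes. Across all tested genes, the deviations of KO 1 and WT 1 from their group means had a correlation of -0.907. Genes higher in WT 1 than in WT 2 thus tended to be higher in KO 2 than in KO 1. The order of the KO libraries therefore adds little to that of the WT libraries. The complement gene C1qa was at 4.36 and 4.6 in KO, against 4.74 and 4.09 in WT. The adhesion gene Vcam1 was at 6.40 and 6.51 in KO, against 6.79 and 6.27 in WT. Csf1r, Adgre1, Cd68 and Axl did not have this order. Cd68 was at 6.43 and 6.36 in KO, against 6.60 and 6.58 in WT. It was called lower (-0.195, limma adjusted p = 0.0462), the only call among the 14. Of the 15 markers listed, Itgam stood on more than 1 row and was left out, and none of the 14 was under 2.84 in any library. Some lay near the minimum value, such as Cd163, at or under 3.43, and Cd14, at or under 3.72. Summed linear values of the 14 ran from 1087.2 to 1171.7 in KO, against 1128.6 to 1390.6 in WT. B cell markers also tended to peak in WT 1, which was the highest library for 4 of the 6 tested, and 2 of the 6 had the order of Slc40a1. Their summed linear values were 321.7 and 315.7 in KO, against 393.8 and 353.5 in WT, with a median log2 difference of -0.38, and 1 of the 6, Cd79a, was called lower (-0.62, limma adjusted p = 0.0119). The part of macrophage and B cell markers in the spread of Slc40a1 was not tested.

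Among the storage and release genes, the heavy and light chains of ferritin differed in what they showed. Fth1 (chromosome 19, 9980598 to 9985098, plus strand), the heavy chain with the ferroxidase activity that oxidises iron for storage, was at 11.20 in both KO libraries, against 11.08 and 11.04 in WT. Both KO libraries were above both WT libraries. Its log2 difference was 0.14 (SE 0.02, limma adjusted p = 0.0131). The difference was 0.14 without either KO library, 0.16 without WT 1 and 0.12 without WT 2 (limma adjusted p 0.0918 to 0.109). It was 0.05 and not called after a correction for length and mean value (limma adjusted p = 0.131, and 0.0128 to 0.131 over all alternatives). The length in that correction was that of all annotated exons of a gene, 3469 bases for Fth1, against 929 for its transcript Fth1-201.

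Ftl1 (chromosome 7, 45457944 to 45459884, minus strand), the light chain that helps form the iron core, was at 9.63 and 9.64 in KO, against 9.65 in both WT libraries. The log2 difference was -0.015 (95% interval -0.06 to 0.03, limma adjusted p = 0.48). After the correction for length and mean value it was -0.13 and was called (limma adjusted p = 0.013; 0.013 to 0.704 over all alternatives). The log2 value of Fth1 minus that of Ftl1 was 1.57 and 1.56 in KO, against 1.43 and 1.39 in WT, so the heavy chain lay higher relative to the light chain in both KO libraries. Both ferritin genes have processed pseudogenes that can take a share of the reads, so their levels are uncertain. The exons of Ftl1 also share 355 bases with Gm10252 on the other strand, which was at 4.69 and 4.59 in KO, against 4.16 and 4.30 in WT, and the sources used here do not say whether counting used the strand.

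Ncoa4 (chromosome 14, 32159865 to 32179855, plus strand) encodes the receptor that delivers ferritin to autophagosomes so that its iron is released. It was at 9.34 and 9.36 in KO, against 9.20 and 9.19 in WT. The groups were well apart relative to their spread. The log2 difference was 0.155 (SE 0.02, limma adjusted p = 0.0108). It ranged from 0.145 without KO 2 to 0.165 without KO 1, at 0.16 without WT 1 and 0.15 without WT 2 (limma adjusted p 0.0825 to 0.0975). Of all tested genes, 44.5% had a larger absolute difference, and 48.7% exceeded that of Fth1, so both changes were of a size common in the table.

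Hmox1 (chromosome 8, 75093621 to 75100589, plus strand), the inducible heme oxygenase that frees iron from heme, was at 8.17 and 8.15 in KO, against 8.26 and 8.11 in WT. The KO values lay between the WT values. Its log2 difference was -0.025 with a 95% interval of -0.21 to 0.16 (limma adjusted p = 0.771), and it was 0.05 without WT 1 and -0.10 without WT 2. WT 1 was the highest library for Hmox1, as for 11 of the 14 macrophage markers and 23.1% of all tested genes. Hmox1 did not share the order of Slc40a1, since KO 1 was above KO 2, and the part of macrophage markers in its value was not tested.

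Neither iron regulatory protein gene was called. Ireb2 (chromosome 9, 54863789 to 54912530, plus strand), which encodes IRP2, was at 11.10 and 11.12 in KO, against 11.16 and 11.14 in WT. The log2 difference was -0.04 (95% interval -0.09 to 0.01, limma adjusted p = 0.122). It was called lower after quantile normalization (-0.08, limma adjusted p = 0.0203) and after median centring (-0.07, limma adjusted p = 0.0375), over a range of 0.0148 to 0.338 for all alternatives. Aco1 (chromosome 4, 40143081 to 40198338, plus strand), which encodes IRP1 and serves as cytosolic aconitase when it holds an iron-sulfur cluster, was at 9.84 in both KO libraries, against 9.79 and 9.83 in WT. Its log2 difference was 0.03 (95% interval -0.03 to 0.09, limma adjusted p = 0.308), and its sign turned after quantile normalization (-0.02) and after the correction for length and mean value (-0.01).

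The order of the levels depends on the length used, so linear values were divided by the length of 1 protein-coding transcript a gene. Per kilobase, Fth1 was the highest at 2532 in both KO libraries, against 2330 and 2266 in WT. Ftl1 followed at 819 and 824 in KO, against 830 in both WT libraries, and Tfrc was at 792 and 755 in KO, against 530 and 553 in WT, so Tfrc lay close under Ftl1 in KO and well under it in WT. Ireb2 was at 380 and 386 in KO, against 397 and 391 in WT. Slc11a2, Aco1, Slc25a37, Ncoa4 and Hmox1 lay between 174.7 and 260.1 in all libraries, and neighbours among them overlapped: Aco1 was above Slc25a37 in KO and below it in WT, and Ncoa4 was above Hmox1 in KO and below it in WT. Slc40a1 was the lowest at 10.2 and 13.3 in KO, against 17.5 and 10.5 in WT. Over all annotated exons of a gene, the values of Fth1, Tfrc and Ftl1 were much closer, at 678, 627 and 591 in KO 1, and Tfrc then lay above Ftl1 in both KO libraries but below it in both WT libraries. With that length, Aco1 was above Slc25a37 and Ncoa4 was below Hmox1 in every library. The changes of order between KO and WT in those pairs thus rest on the transcript length.

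Beyond the 10 genes, 88 other genes of iron handling were listed in 6 groups, and 72 of them were tested. Of these, 23 were called higher and 9 lower in KO, 44.4% against 47.4% of all tested genes, and their median log2 difference was 0.05. In the group for iron entry and delivery inside the cell, 6 of 13 tested genes were higher and 2 lower, against the same 27.1% and 20.3%. The lysosomal cation channel gene Mcoln1 (mucolipin-1), which passes iron out of lysosomes, differed by -0.305 (SE 0.02), at 9.40 and 9.37 in KO, against 9.68 and 9.70 in WT. The lipocalin receptor gene Slc22a17 had the most negative difference of the list, -0.93 (SE 0.07), at 5.0 and 4.86 in KO, against 5.84 and 5.88 in WT. The heme transporter gene Slc48a1 was higher by 0.235 (SE 0.02). The limma adjusted p was 0.00597 for Mcoln1, 0.0065 for Slc22a17 and 0.00822 for Slc48a1.

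Genes that act on the iron regulatory proteins and on ferritin turnover went both ways, with 2 of 8 tested genes called higher and 3 lower, against 27.1% and 20.3% of all tested genes. Fbxl5, the iron-sensing subunit of the ubiquitin ligase that degrades IRP2 when iron is plentiful, was at 10.24 and 10.28 in KO, against 10.56 and 10.50 in WT, a log2 difference of -0.27 (SE 0.03, limma adjusted p = 0.00939). Herc2, a ubiquitin ligase known to act on NCOA4 and FBXL5, was at 11.88 and 11.94 in KO, against 12.28 and 12.25 in WT, a log2 difference of -0.355 (SE 0.03, limma adjusted p = 0.0065). Both genes were thus lower in both KO libraries, while Ireb2 was not called and Ncoa4 was higher. These are mRNA values, and the levels of the IRP2, NCOA4 and FBXL5 proteins were not measured. The autophagy receptor gene Tax1bp1 was higher by 0.135 (SE 0.02, limma adjusted p = 0.0125).

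Among other transcripts with a known IRE, 2 of 5 were called higher and 1 lower, against 27.1% and 20.3% of all tested genes. Epas1, which encodes the hypoxia-inducible factor HIF-2α and is known for an IRE in its 5′ untranslated region, was at 9.72 and 9.60 in KO, against 8.87 and 8.84 in WT. That was a log2 difference of 0.805 (SE 0.05, limma adjusted p = 0.0058), larger than that of any of the 10 genes. The letters searched here were not found in its transcript. The phosphatase gene Cdc14a, which stands on this list and on the one before, had a log2 difference of -0.20 (SE 0.04, limma adjusted p = 0.0208).

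Of the heme genes, 6 of 18 tested were called higher and 3 lower, counts near the 27.1% and 20.3% of all tested genes. Uros, the uroporphyrinogen synthase, was at 7.79 and 7.83 in KO, against 8.21 and 8.17 in WT, a log2 difference of -0.38 (SE 0.03, limma adjusted p = 0.00737). Abcb10, a mitochondrial transporter known to stabilise mitoferrin-1 in erythroid cells, was higher by 0.345 (SE 0.04, limma adjusted p = 0.0111).

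Of the genes of iron-sulfur cluster assembly, 6 of 26 tested were called higher and 0 lower, against 27.1% and 20.3% of all tested genes. Hspa9, the mitochondrial chaperone of cluster transfer, was higher by 0.15 (SE 0.01, limma adjusted p = 0.00701). The cytosolic scaffold gene Nubp2 was higher by 0.16 (SE 0.01, limma adjusted p = 0.00763) and the glutaredoxin gene Glrx3 by 0.155 (SE 0.02, limma adjusted p = 0.00889). In the export group, 4 of 8 genes were tested. Cp, the ferroxidase ceruloplasmin, was lower at 3.40 and 3.27 in KO, against 3.88 and 3.72 in WT (log2 difference -0.465, limma adjusted p = 0.0269), near the minimum value. Ndfip1, an adaptor of ubiquitin ligases reported to act on DMT1, was higher by 0.11 (SE 0.02, limma adjusted p = 0.024). Hepcidin (Hamp) was at or under 1.82 in every library and was not tested.

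**Figure D5:**
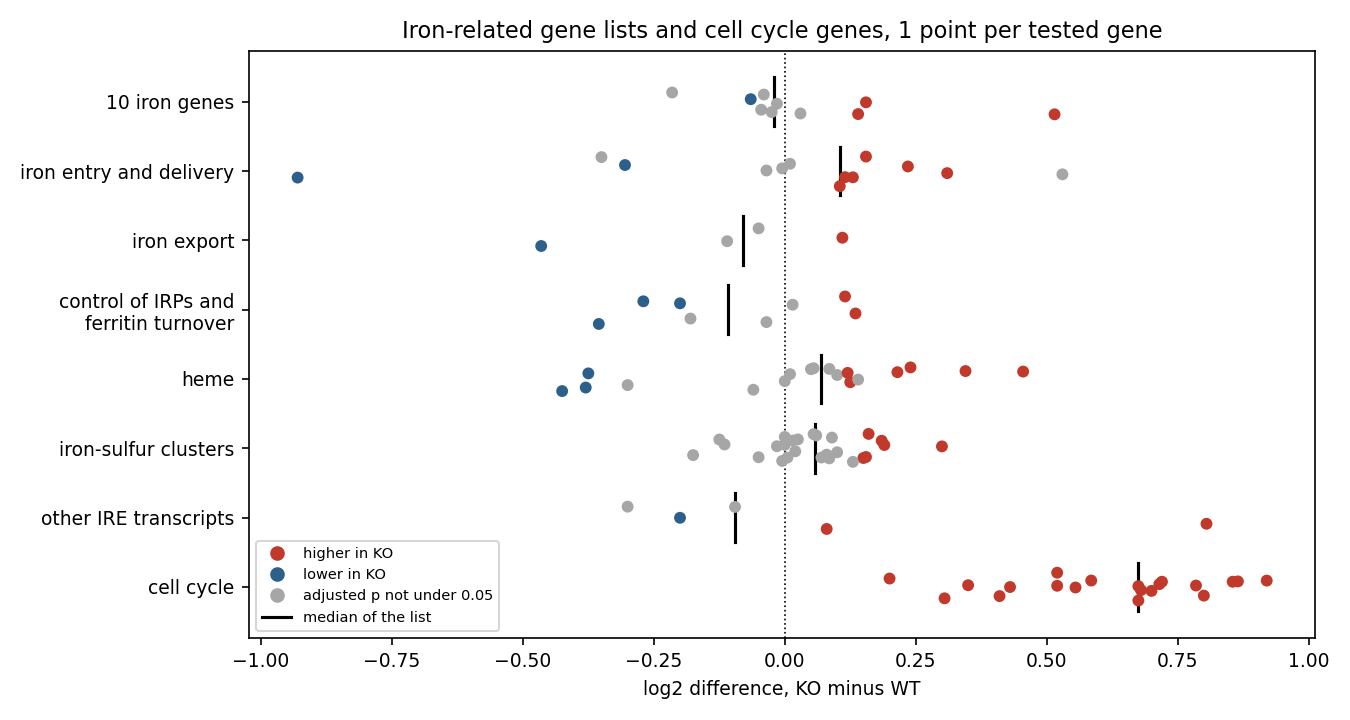
Log2 difference, KO minus WT, of each tested gene of the 10 iron genes, 6 other iron-related lists and the cell cycle list; red and blue points passed the test (higher and lower in KO), grey points did not, and bars are medians. The iron lists scatter on both sides of 0, and all 20 cell cycle genes lie above 0.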

How the data were processed

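Poly-A RNA of sorted Treg was sequenced in 2 KO and 2 WT libraries. The deposited values are log2 counts normalised by the authors, per the file headers and name. The submitters' processing notes name STAR, DESeq2 and mm10, with no versions or roles; the sources used here give no annotation, counting tool or exact transform. Values ran from -2.1 to 13.94, and no counting interval can be given. No exact permutation of 2 against 2 libraries goes below p = 0.333.

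The linear value is 2 to the power of the deposited value, and a gene entered the tests at 10 or more in at least 2 libraries. The comparison used limma 3.58.1 (R 4.3.3), two-sided, with a variance trend and only genotype in the model (2 residual degrees of freedom); intervals and SEs are of this fit. It was first tested on simulated data with independent noise in each library and few changed genes. In the deposited values, same-numbered libraries moved in opposite directions and calls were common. That test therefore does not check the p-values printed here. IREs, lengths and positions came from GENCODE M21 (GRCm38), in Python 3.11.15. The members and lists were chosen with earlier results of these data known. Named were all members and, per other list, up to 3 called genes with the smallest p. Slc25a28, C1qa, Vcam1, Axl, Csf1r, Adgre1, Cd68, Cd163, Cd14, Cd79a and Hamp were added after their values were seen. A few genes picked this way are left out of the text.

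Alternatives were the replicate number in the model, a minimum of 100 or none, quantile or median scaling, 10 added to linear values, a loess correction (span 0.4) for the length of all annotated exons of a gene and mean value, a robust or untrended prior, array weights, and leaving out each library.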

Additional observations from a re-analysis of the deposited data

How the results depend on the processing

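Of the 10 iron genes, 4 were called in the reported fit, and 3 to 5 with no filter, with a minimum of 100 (which Slc40a1 did not pass), with 10 added to linear values, with quantile or median scaling, with the correction for length and mean value, with an untrended or robust prior and with array weights. The minimum of 100 left 1788 genes called lower over the whole table, against 2778. With the replicate number as a block, 0 of the 10 and 0 genes of the table were called, in either direction (smallest limma adjusted p 0.0964; 4881 genes, 3 of the 10 among them, at an unadjusted p under 0.05). Tfrc then had an adjusted p of 0.0964, Fth1 of 0.101, Ncoa4 of 0.107 and Slc25a37 of 0.203. Nothing in the labels says that a number marks a shared batch or animal. Across genes, the deviations of KO 1 and WT 1 from their group means had a correlation of -0.907, so libraries of the same number moved in opposite directions. Whether a replicate effect was removed before deposit was not tested. Such a removal would make the SEs and p-values of the reported fit too small. A crossed pairing as a block (KO 1 with WT 2), added after the data were seen, called 9728 genes, 4446 of them lower, and 6 of the 10. Leaving out 1 library at a time gave 0 called genes in each case, with 3 to 4 of the 10 at an unadjusted p under 0.05; the group with 1 library is then assumed to vary like the other, with fewer residual degrees of freedom. Signs turned for 3 uncalled genes: Aco1 (-0.0175 with quantile normalization, -0.0113 with the correction for length and mean value), Slc40a1 (-0.58 to 0.15 with a library left out) and Hmox1 (-0.10 to 0.05). The sign of the other 7 genes held in every alternative. Only the 2 scalings, the correction for length and mean value and the 10 added to linear values could have turned it. Leaving out a library could not, as their groups did not overlap, and the remaining alternatives left the differences unchanged. With 2 libraries a group and no read counts, differences as small as those of Slc11a2, Ftl1, Ireb2 and Aco1 cannot be told from 0.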
